A study of Mus musculus with 4 samples.

Results

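DEAD and DEAH box RNA helicases were followed in B16F10 mouse melanoma cells given plumbagin, a plant naphthoquinone. Members were the genes whose symbol begins with Ddx or Dhx and a number, pseudogenes left out, and 48 of the 17097 named genes on the arrays met this rule. RefSeq lists 53 such genes for the mouse. The other 5, Ddx19a, Ddx23, Ddx28, Ddx3y and Ddx49, had no probe set annotated to that gene alone and were not analysed here. Where a gene had several probe sets, the brightest by its mean over all 4 arrays stood for it, so the height of these means was used in the choice and is given as a description.

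Gene expression was measured on 4 Affymetrix arrays, 1 per sample. Cells of 2 samples received 2 µM plumbagin for 24 h (plumbagin 1 and plumbagin 2), and cells of 2 samples received MilliQ water, 0 µM plumbagin (control 1 and control 2). B16F10 is a pigmented melanoma line of C57BL/6 origin, and all samples came from this line with no other allele or agent named. The labels give the vehicle of plumbagin no separate mention and do not say whether samples of a treatment were separate cultures, so p-values measure the spread between these samples, which may be technical.

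RNA helicases of these families use ATP to separate short RNA duplexes or to strip proteins from RNA. They are named for a stretch of 4 amino acids in the ATP-binding core, aspartate-glutamate-alanine followed by aspartate (DEAD) or histidine (DEAH). Ribosome assembly in the nucleolus, most remodelling steps of the spliceosome, mRNA export, translation and mRNA decay each draw on members of their own. A few carry the symbol without the usual role: Ddx11 encodes an iron-sulfur DNA helicase of sister chromatid cohesion, and Ddx58 and Dhx58 encode sensors of viral RNA, RIG-I and LGP2.

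Values are log2 expression values as deposited. The median over all probe sets was 4.32 to 4.39 per array. Plumbagin 1 differed from the other arrays in its upper quartile, 6.26 against 6.34 to 6.36, and in the mean of 18 hybridization control probe sets, 9.58 against 8.46 to 8.77. All 8 melanocyte markers examined were bright, between 10.6 and 12.4 over the arrays, and the summed marker level was 14.5 and 14.6 in plumbagin 1 and 2 and 14.6 in both controls. Of 7 fibroblast and 6 keratinocyte markers, 0 exceeded the background level of 5.05, the 95th percentile of 41 odorant receptor genes. Of the leukocyte and endothelial markers, 1 of 6 and 1 of 5 did so on each array. In bulk RNA, fewer cells of a type and less RNA per cell cannot be told apart. Of the 48 helicases, 41 had a mean above the background level.

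Plumbagin-treated cells were compared with control cells across the family. No helicase passed the test: with limma and Benjamini-Hochberg adjustment over 17097 genes, 0 of 48 members and 0 of all genes (0%) had an adjusted p under 0.05, and the smallest member value was 1. At an unadjusted p under 0.05 there were 0 members, against 169 of all genes (0.988%). Most of the differences lay below 0. Of the members, 37 (77.1%) had a lower mean in plumbagin-treated cells, against 55.0% of all genes and 65.0% of genes above background. Of the 41 members above background, 32 (78.0%) did. Over all 48, the count was 32 (66.7%) after cyclic loess normalization and 30 (62.5%) without plumbagin 1. The median difference was -0.10 over members, -0.01 over all genes and -0.05 over genes above background, and over members it was -0.06 after cyclic loess. For 17 members (35.4%) the higher plumbagin array was under the lower control array, against 15.2% of all genes and 18.3% of genes above background. This held for 15 of the 41 members above background. The reverse held for 1 member, Ddx46, against 10.2% of all genes and 5.66% of genes above background.

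The 95% interval of the difference bounded what the arrays could show. It stayed within a 2-fold change in either direction for 45 of 48 members. This was so for 16470 of all 17097 genes and 8052 of the 8637 genes above background. The exceptions among the members were Ddx6, Ddx10 and Ddx52, whose intervals reached further. For 41 of 48 members, the gap between the 2 arrays of plumbagin or of control was larger than the difference between the treatments. The same held for 14627 of all 17097 genes and for 7622 of the 8637 genes above background.

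**Figure D1:**
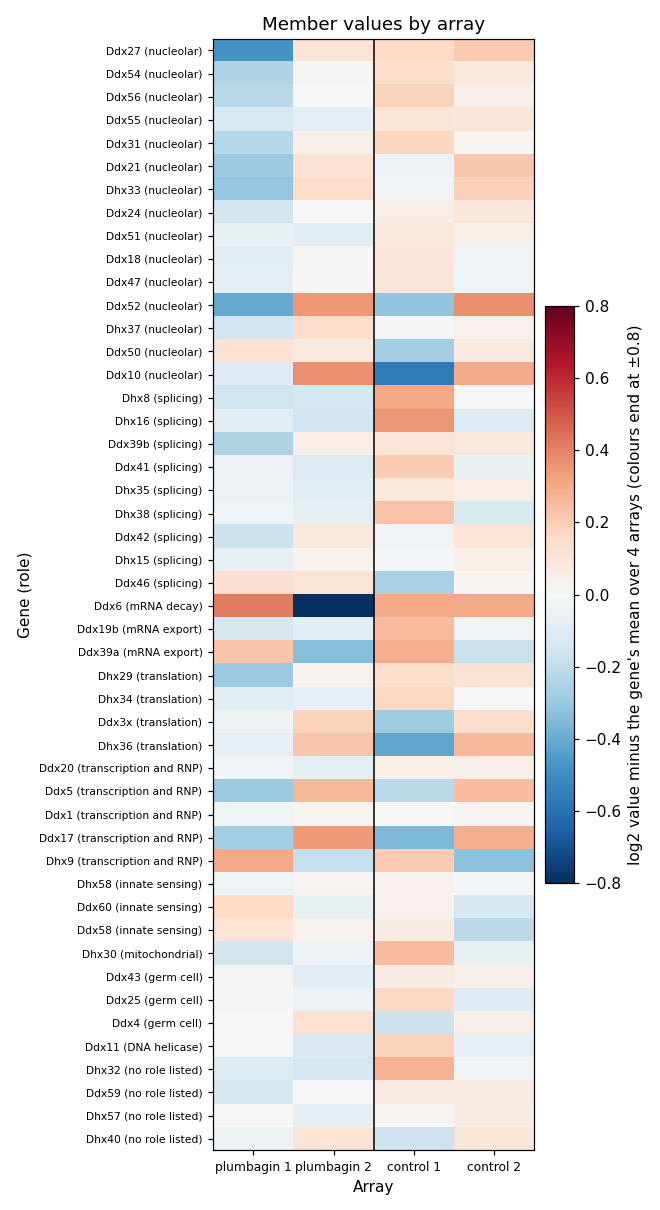
Log2 value of each of the 48 helicases on each array, less that gene's mean over the 4 arrays; rows are genes grouped by role, columns are plumbagin 1, plumbagin 2, control 1 and control 2. For Ddx6, plumbagin 2 minus plumbagin 1 is -1.43, and Ddx52, Ddx17 and Ddx5 differ between arrays numbered 2 and 1 in both treatments.

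Nucleolar helicases, which unwind and proofread pre-ribosomal RNA, were the most numerous group, with 15 members. Of these, 13 (86.7%) had lower means in plumbagin-treated cells, against 55.0% of all genes and 65.0% of genes above background, with a median difference of -0.15. In 6 (40%) both plumbagin arrays lay below both controls, against 15.2% of all genes and 18.3% of genes above background. Of the 13 nucleolar members above background, 11 had lower means and 5 were apart below the controls. Over all 15, the median was -0.03 without plumbagin 1, -0.23 without plumbagin 2 and -0.07 with each gene's probe sets averaged. Ddx27, which processes the precursor of large-subunit ribosomal RNA, had values of 6.19 and 6.77 in plumbagin 1 and 2 and of 6.83 and 6.88 in control 1 and 2. Its groups did not overlap, but plumbagin 1 alone was far below the rest, and the difference was -0.37 ± 0.21 (log2, SE, n = 2 per group, as for every difference given with ±). Ddx55, a helicase of large-subunit assembly, had 6.09 and 6.15 in plumbagin-treated cells and 6.33 and 6.32 in controls. Its arrays agreed closely within each treatment, and the difference of -0.20 ± 0.08 had an interval of -0.42 to 0.01 and the smallest unadjusted p of the family, 0.0571.

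Ddx54, a nucleolar protein that also represses transcription, had 6.19 and 6.44 with plumbagin against 6.58 and 6.52 in controls (-0.23 ± 0.12). Ddx56, needed for assembly of the large subunit, had 7.21 and 7.43 against 7.63 and 7.48 in controls (-0.23 ± 0.12). In both genes plumbagin 2 lay just under the lower control. The same held for Ddx24, with 7.66 and 7.81 against 7.86 and 7.90 in controls (-0.15 ± 0.09). Ddx51, which helps to mature large-subunit ribosomal RNA, had 4.65 and 4.62 against 4.79 and 4.74 in controls (-0.13 ± 0.08), at means below the background level.

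The promoter of Ddx27 is shown because this gene had the lowest nucleolar difference and holds 3 of the motifs searched within the 250 bases before its start (GRCm38.p6, chr2:167015063-167015312, plus strand, sequence from RefSeq, 5′ to 3′). Capitals mark a CCAAT box, a GC box and an ETS family site, each on the minus strand.
Ddx27: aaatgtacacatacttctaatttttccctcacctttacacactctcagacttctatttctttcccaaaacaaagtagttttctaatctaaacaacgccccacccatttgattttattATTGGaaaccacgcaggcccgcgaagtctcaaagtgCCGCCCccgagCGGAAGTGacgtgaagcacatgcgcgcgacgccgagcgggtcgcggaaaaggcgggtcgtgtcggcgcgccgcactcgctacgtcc

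The remaining nucleolar helicases overlapped between treatments. Ddx21, which links transcription by RNA polymerase I to ribosomal RNA processing, had 7.85 and 8.26 with plumbagin and 8.09 and 8.36 in controls. Its close paralog Ddx50 went the other way, with 8.40 and 8.36 against 8.01 and 8.36 in controls (0.19 ± 0.14). Ddx10, a factor of the small subunit processome, had 6.38 and 6.85 against 5.92 and 6.79 in controls (0.26 ± 0.34). In both Ddx50 and Ddx10 the lowest array was control 1. Ddx31, Dhx33, Ddx18, Ddx47, Ddx52 and Dhx37 differed by -0.18 to -0.02.

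Splicing helicases drive assembly, catalytic activation and release of the spliceosome, and 9 were measured. In 8 (88.9%) the mean was lower with plumbagin, against 55.0% of all genes and 65.0% of genes above background, with a median of -0.13. In 3 (33.3%) both plumbagin arrays lay below both controls, against 15.2% and 18.3%. The median was -0.06 without control 1 and -0.20 without control 2. Dhx8, counterpart of the yeast helicase that releases spliced mRNA, had 6.20 and 6.22 in plumbagin-treated cells and 6.67 and 6.36 in controls. The plumbagin arrays agreed and the controls did not, and the difference was -0.30 ± 0.13 (interval -0.65 to 0.05). Ddx39b, which loads the branch-site recognition complex and takes part in mRNA export, had 9.64 and 9.93 against 9.98 and 9.97 in controls (-0.19 ± 0.13). Dhx35, a component of the catalytic spliceosome, had 5.64 and 5.60 against 5.77 and 5.74 in controls (-0.13 ± 0.08), with similar gaps in both numbers.

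Dhx16, which activates the spliceosome before the first catalytic step, had 7.10 and 7.04 with plumbagin against 7.55 and 7.08 in controls. The difference was -0.24 ± 0.18, and control 1 alone stood above the other arrays. Ddx41, Dhx38, Ddx42 and Dhx15, the helicase of spliceosome disassembly, differed by -0.16 to -0.03 with overlapping groups. Ddx46, which checks the branch-site duplex early in assembly, was the exception, with 7.07 and 7.05 with plumbagin and 6.68 and 6.96 in controls. It was the only helicase with both plumbagin arrays above both controls (0.24 ± 0.12), and its other 4 probe sets also differed by amounts above 0, from 0.13 to 0.27.

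The promoter of Dhx35 is shown because it was the splicing member with the most even pair of differences (GRCm38.p6, chr2:158794557-158794806, plus strand, RefSeq, 5′ to 3′). Capitals mark a CCAAT box, a pair of E-boxes and a GC box on the minus strand.
Dhx35: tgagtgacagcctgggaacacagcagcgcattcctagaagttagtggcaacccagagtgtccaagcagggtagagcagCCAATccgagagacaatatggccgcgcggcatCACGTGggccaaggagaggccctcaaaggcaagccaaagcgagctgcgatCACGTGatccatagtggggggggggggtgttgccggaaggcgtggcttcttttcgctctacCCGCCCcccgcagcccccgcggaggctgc

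**Figure D2:**
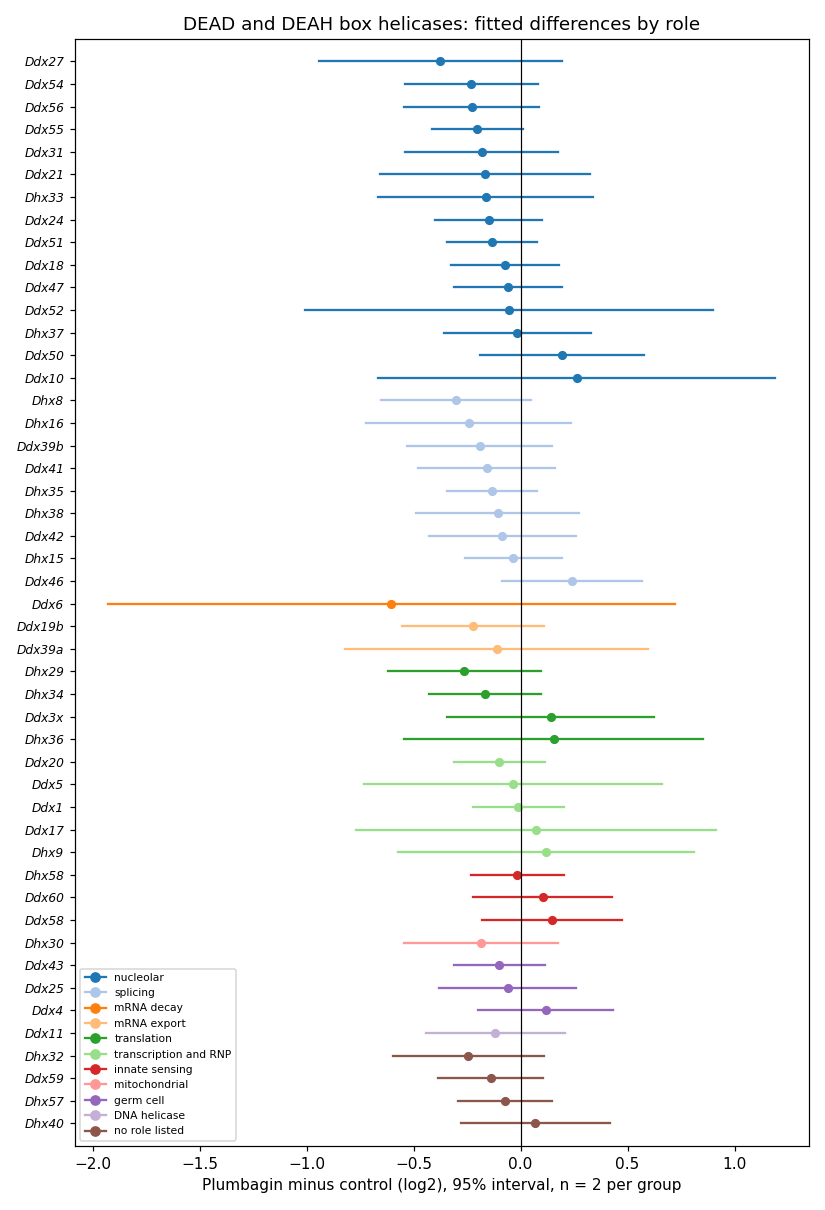
Difference of each helicase between plumbagin and control on the log2 scale (point) with its 95% interval from limma (line, n = 2 per group), grouped and coloured by role. Every interval crosses 0, and that of Ddx6, from -1.93 to 0.72, is the widest of the 48.

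Ddx6 is the decay member: it joins the decapping complex to the CCR4-NOT deadenylase and represses translation of the mRNAs it binds in P-bodies. On its brightest probe set, the one used above, Ddx6 had 9.19 in plumbagin 1 and 7.76 in plumbagin 2, against 9.08 in both controls. Plumbagin 2 stood alone, 2.56-fold below the mean of the other 3 arrays, while plumbagin 1 was slightly above the controls. The fitted difference was the lowest of the family and had its widest interval, -0.60 ± 0.49 (SE). Between plumbagin 2 and control 2 the gap was -1.32, the largest in size when each of the 17097 genes is taken on its brightest probe set, where the next gene had 0.89. Over all 28898 named probe sets its rank was 2, so a probe set that was not the brightest of its gene differed more.

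The other 2 probe sets of Ddx6 differed from the brightest and from each other. On the dimmest the values were 8.08 and 7.80 in plumbagin 1 and 2 against 8.33 and 8.35 in controls, so both plumbagin arrays were lower and plumbagin 2 again the lowest. The difference there was -0.40 ± 0.12, with an unadjusted p of 0.0277 and an adjusted p of 1 in the limma fit of all 28898 named probe sets, of which 1.09% had an unadjusted p under 0.05. On the probe set of middle brightness the values were 8.47 and 8.55 against 8.28 and 8.47 in controls, a difference of 0.14 ± 0.10 in the opposite direction. The 3 probe sets thus gave 3 different patterns for 1 gene, and the mean of all 3 differed by -0.29 between treatments. Without plumbagin 2 the difference on the brightest was 0.11. Which transcripts each probe set reads was not tested.

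**Figure D3:**
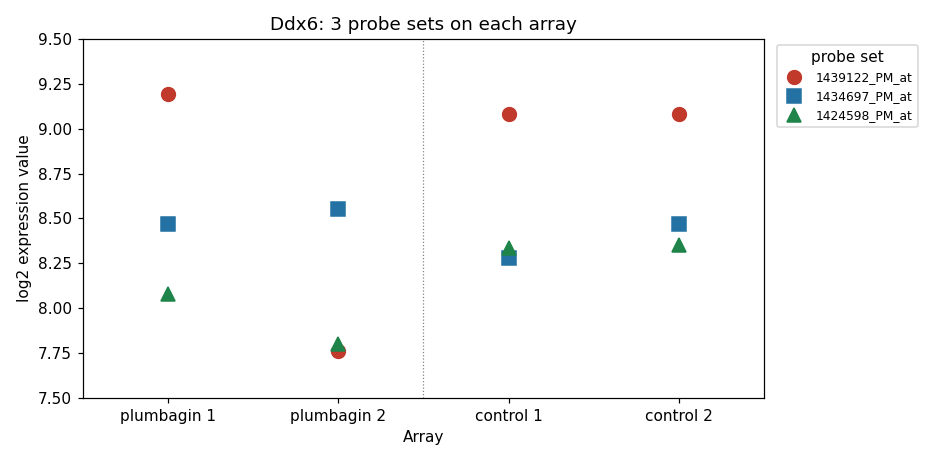
Log2 values of the 3 Ddx6 probe sets on plumbagin 1, plumbagin 2, control 1 and control 2; each symbol is 1 probe set on 1 array, and circles, squares and triangles are the probe sets. The brightest probe set lies at 9.08 to 9.19 on 3 arrays and at 7.76 on plumbagin 2, while that of middle brightness stays between 8.28 and 8.55.

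Genes that act with these helicases were examined from lists of known partners, nearly all of them above background, where 65.0% of genes were lower with plumbagin, 18.3% apart below the controls and 5.66% apart above. Of 44 nucleolar assembly factors, 34 (77.3%) had lower means with plumbagin (median -0.14), and in 16 (36.4%) both plumbagin arrays lay below both controls. The smallest p belonged to Nop2, a ribosomal RNA methyltransferase (-0.39 ± 0.17), Rrp9, a processome subunit (-0.19 ± 0.09), and Nip7, a factor of large-subunit assembly (-0.25 ± 0.12). Of 33 core spliceosome genes, 27 (81.8%) were lower (median -0.10), and 9 (27.3%) had groups apart in that direction. Here the leading genes were Prpf3, a protein of the tri-snRNP (-0.27 ± 0.09), Xab2, a spliceosome protein also known from transcription-coupled repair (-0.31 ± 0.11) and Snrpa1, a protein of the branch-site particle (-0.23 ± 0.10). Of 31 decapping, P-body and deadenylation genes, 18 (58.1%) were lower (median -0.04), a share under that of genes above background, 8 (25.8%) were apart below the controls and 4 apart above. The smallest p there belonged to Upf1, the helicase of nonsense-mediated decay (-0.22 ± 0.08), Dcps, the scavenger decapping enzyme (-0.23 ± 0.10), and Edc4, a decapping scaffold (-0.25 ± 0.11). None of these lists had a member past an adjusted p of 0.05 (0, 0 and 0), and 0, 2 and 0 members had an unadjusted p under 0.05, against 0.988% of all genes.

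DEAD box proteins that carry another symbol were set beside the family. Eif4a3, the core of the exon junction complex, had 9.25 and 9.36 with plumbagin and 9.59 and 9.38 in controls (-0.18 ± 0.11). Eif4a1, the cap-dependent translation initiation helicase, had 11.05 and 11.01 against 11.19 and 10.97 in controls (-0.05 ± 0.11). Eif4a2 was not analysed here. A list of other RNA helicases outside the Ddx and Dhx symbols had 9 measured genes. Helicases counted in the partner lists, such as Upf1, were not in it. Of the 9, 3 (33.3%) had lower means, with a median of 0.03. The share was 55.0% of all genes and 65.0% of genes above background, and 5 of the 9 were above background. The smallest p was that of Helz2, a nuclear receptor coactivator, with 5.09 and 5.30 against 5.49 and 5.57 in controls (-0.33 ± 0.11). It was the only unadjusted limma p of the 9 under 0.05, against 0.988% of all genes. Next came Ifih1, the viral RNA sensor MDA-5 (0.20 ± 0.11), and Skiv2l, the exosome cofactor (-0.16 ± 0.10), both below the background level.

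Among mRNA export helicases, Ddx19b had 6.35 and 6.39 with plumbagin and 6.73 and 6.45 in controls (-0.22 ± 0.12). Its probe set is of the type shared between related transcripts, so a part of this signal may belong to Ddx19a. The same limit holds for the probe sets of Ddx3x, Dhx9, Dhx38 and Dhx57. The probe set of Ddx17 is of a different type, for which signal from other transcripts is also possible. The other probe set of Ddx17 differed by -0.33 ± 0.45. Ddx39a had 9.53 and 8.97 against 9.60 and 9.12 in controls, and its spread between numbers exceeded its difference of -0.11 ± 0.26.

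Of the 4 translation and mRNA structure helicases, Dhx29 and Dhx34 had groups apart below the controls, and Ddx3x and Dhx36 had higher means with overlap. Of all genes, 15.2% were apart below the controls, and of genes above background 18.3%. Dhx29, which helps the small ribosomal subunit to scan structured leaders, had 6.16 and 6.48 with plumbagin and 6.60 and 6.57 in controls (-0.26 ± 0.13). Dhx34, a factor of nonsense-mediated decay, had 5.26 and 5.29 against 5.52 and 5.35 in controls (-0.17 ± 0.10). Dhx36, which unwinds G-quadruplexes, had 8.31 and 8.59 against 7.96 and 8.63 in controls, and Ddx3x had 10.64 and 10.86 against 10.40 and 10.82 in controls. In both, control 1 was the lowest array.

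Helicases of transcription and RNP assembly showed small differences between treatments. Ddx5, Ddx17 and Dhx9, coregulators of transcription, differed by -0.03 ± 0.26, 0.07 ± 0.31 and 0.12 ± 0.26. Ddx1, of the tRNA ligase complex, had 9.99 and 10.05 with plumbagin and 10.03 and 10.04 in controls, with an interval of -0.22 to 0.20 for the difference. Ddx20, also known as gemin3 of the SMN complex, had 7.40 and 7.35 against 7.48 and 7.47 in controls (-0.10 ± 0.08), with its groups apart. Dhx30, of mitochondrial ribosome assembly, had 8.001 and 8.106 against 8.391 and 8.085 in controls (-0.18 ± 0.13), where control 1 alone was high.

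The innate sensing helicases were given beside their partners. Ddx58 had 6.96 and 6.89 with plumbagin and 6.91 and 6.64 in controls (0.15 ± 0.12), the lowest value being that of control 2. Ddx60, an interferon-induced helicase, had 4.59 and 4.37 against 4.46 and 4.29 in controls (0.10 ± 0.12), and Dhx58 had 3.938 and 3.997 against 4.008 and 3.958 in controls, both genes below the background level. Of 10 partners and interferon-induced genes, 4 had lower and 5 higher means with plumbagin and 1, Trim25, had equal means, with a median of 0.00716. Only 4 of the 10 were above background. Rsad2, the antiviral protein viperin, had the smallest p, with 6.83 and 6.52 against 6.43 and 6.28 in controls (0.32 ± 0.14). None of the 10 passed the test (0 at an adjusted and 0 at an unadjusted p under 0.05).

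The promoter of Ddx60 is shown for its interferon-stimulated response elements, of which it holds a pair, starting 53 and 19 bases before the start (GRCm38.p6, chr8:61927837-61928086, plus strand, RefSeq, 5′ to 3′). Capitals mark these and a CCAAT box further upstream.
Ddx60: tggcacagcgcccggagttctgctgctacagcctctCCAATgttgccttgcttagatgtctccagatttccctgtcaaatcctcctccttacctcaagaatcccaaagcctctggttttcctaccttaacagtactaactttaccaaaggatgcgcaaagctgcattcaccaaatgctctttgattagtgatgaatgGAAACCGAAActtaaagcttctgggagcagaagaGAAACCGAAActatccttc

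The germ cell helicases Ddx4, Ddx25 and Ddx43 had means of 3.05, 4.98 and 3.16, all below the background level, and differed by -0.10 to 0.12. Ddx11 differed by -0.12 ± 0.12. Of the 4 members given no role, Dhx32 had 4.99 and 4.97 with plumbagin against 5.38 and 5.07 in controls (-0.24 ± 0.13). Ddx59 differed by -0.14 ± 0.09 and Dhx57 by -0.07 ± 0.08. In these 3, groups were apart below the controls, against 15.2% of all genes and 18.3% of genes above background. Dhx40 differed by 0.07 ± 0.13 with overlap.

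The treatments were also compared by the number in the sample titles. Within number 1 the members had a median difference of -0.14 and 36 (75%) were lower, against 55.5% of all genes and 69.1% of genes above background. Within number 2 the median was -0.04 and 29 (60.4%) were lower, against 51.5% of all genes and 50.7% of genes above background. A lower value in both numbers was found for 26 members (54.2%), against 29.0% of all genes and 36.8% of genes above background. A higher value in both was found for 9 (18.8%), against 21.7% and 16.9%. These member counts are over all 48, of which 41 were above background. The sizes differed: the median absolute difference of the members was 0.19 in number 1 and 0.06 in number 2. Apart from Ddx6, the number 2 differences ran from -0.17 for Ddx55 to 0.24 for Ddx58, and those of number 1 from -0.64 for Ddx27 to 0.46 for Ddx10. By role, nucleolar members had medians of -0.20 and -0.05 in numbers 1 and 2, and splicing members of -0.25 and -0.04.

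Differences within number 1 varied with brightness among all genes, and most members lie in the range concerned. For genes with a mean between 4 and 5, the median number 1 difference was 0.02 over 2891 genes and -0.16 over 4 helicases, and between 5 and 6 it was -0.04 over 1879 genes and -0.25 over 7 helicases. Between 6 and 7 it was -0.14 over 2037 genes and -0.25 over 12 helicases. Between 7 and 8 it was -0.17 over 2024 genes and -0.15 over 7 helicases, between 8 and 9 it was -0.13 over 1454 genes and -0.17 over 7 helicases, and above 10 it was -0.06 over 520 genes and -0.04 over 5 helicases. Within number 2 the medians over all genes in the ranges from 6 to 7, from 7 to 8 and above 10 were -0.00462, -0.00127 and 0.00670, and those of the helicases -0.07, -0.04 and 0.01. In the range from 5 to 6 they were -0.00210 over all genes and -0.06 over helicases, and from 4 to 5 they were -0.00156 and 0.05. From 8 to 9 they were -0.00822 and -0.00292. The ranges from 9 to 10 and under 4 held 3 helicases each. From 9 to 10 the medians over all genes and helicases were -0.09 and -0.07 in number 1, and 0.00709 and -0.04 in number 2. Under 4 they were 0.02 and -0.07 in number 1, and -0.00787 and 0.04 in number 2. Less the median of all genes of its brightness range, the median helicase differed by -0.06 in number 1 and -0.03 in number 2, with 30 and 28 of 48 members below 0. Over all genes, taking off this median leaves about as many values below 0 as above in each range. The part of the upper quartile and the hybridization controls of plumbagin 1 in the number 1 differences was not tested.

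**Figure D4:**
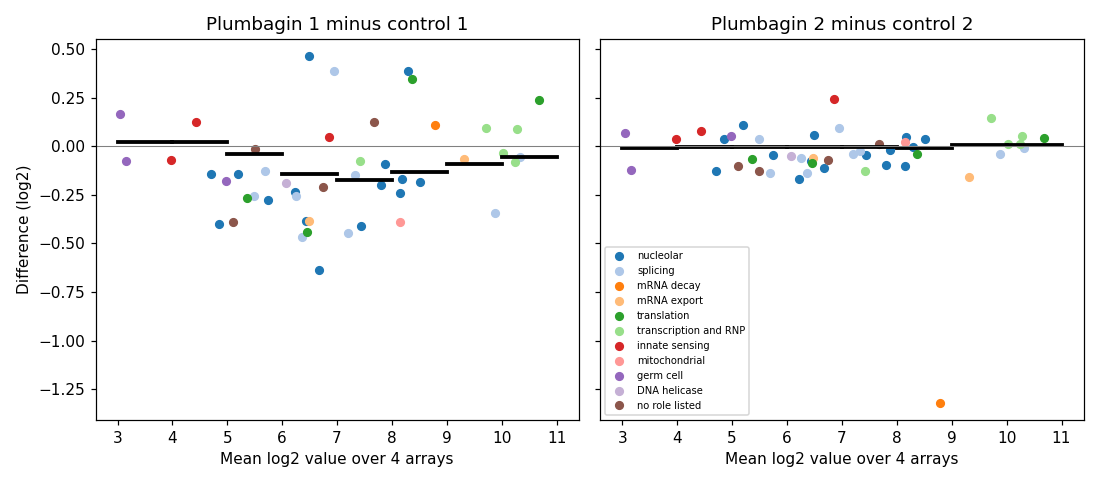
Difference of each helicase within number 1 (left) and within number 2 (right) on the log2 scale against its mean log2 value; points are genes coloured by role, and black bars are medians over all genes in each range of mean value. In number 1 the bars dip to -0.17 between 7 and 8 and the helicases spread from -0.64 to 0.46; in number 2 the bars stay near 0 and Ddx6 lies alone at -1.32.

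Samples of the same treatment differed for many helicases, and often alike in both treatments. Ddx52, a small-subunit factor, had 7.47 in plumbagin 1 and 8.22 in plumbagin 2, and 7.56 in control 1 and 8.24 in control 2. Ddx17 had 10.01 and 10.62 with plumbagin and 9.92 and 10.57 in controls, and Ddx5, its paralog, 9.94 and 10.50 against 10.02 and 10.48. Dhx9, which resolves RNA and DNA hybrids, ran the other way, with 10.01 and 9.52 with plumbagin and 9.92 and 9.38 in controls. In these 4 genes the gap between numbers was several times the gap between treatments.

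Arrays were apart by number, whichever the treatment, in 23 members (47.9%), with number 2 higher in 14 and lower in 9. This share was close to that of all genes, 49.0%, with 18.9% higher and 30.0% lower in number 2. Among the 8637 genes above background the share was larger, 56.8%, with 2434 genes higher and 2469 lower in number 2. By treatment, arrays were apart in 18 members (37.5%), against 25.4% of all genes and 24.0% of genes above background.

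**Figure D5:**
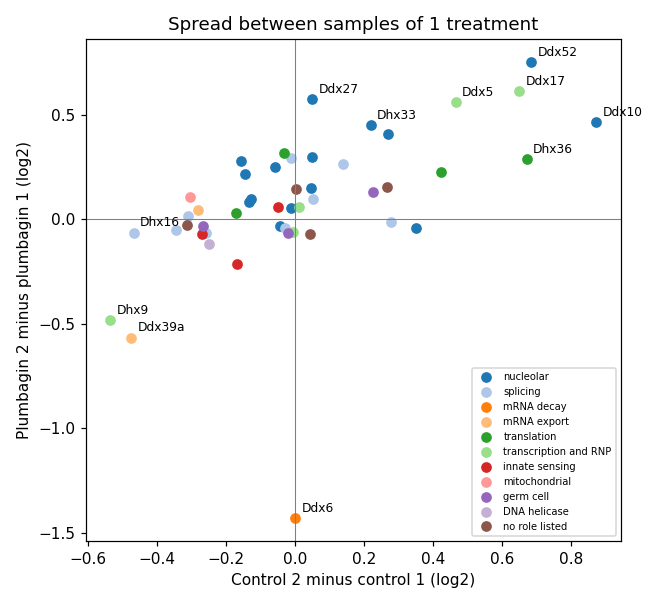
Plumbagin 2 minus plumbagin 1 (vertical, log2) against control 2 minus control 1 (horizontal, log2) for each helicase, coloured by role. Ddx52, Ddx17 and Ddx5 lie high on both axes and Dhx9 and Ddx39a low on both, while Ddx6 lies at -1.43 on the vertical axis with no gap between its controls.

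Probe sets of the same gene were compared as a check on the choice of the brightest. The 48 helicases had 85 probe sets, and 26 had more than 1. Of 21 further probe sets above background, 15 had the sign of the probe set used and 6 the opposite sign, for Ddx1, Ddx17, Ddx5, Ddx52, Ddx6 and Dhx33. Ddx3x, Ddx21, Ddx10 and Dhx36 each had the same sign on every probe set above background. Besides Ddx6, the only member probe set with an unadjusted p under 0.05 was a dim one of Ddx19b. It had 4.07 and 4.15 with plumbagin against 4.59 and 4.45 in controls (-0.40 ± 0.09, adjusted p = 1 in the limma fit of all named probe sets). In that fit 1.09% of all named probe sets had an unadjusted p under 0.05. A further Ddx19b probe set, above background, overlapped between treatments, with 5.80 and 6.39 against 6.14 and 6.37 in controls (-0.17 ± 0.23). The remaining one, below background, differed by -0.01 ± 0.13.

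Promoter windows of 300 bases, from 250 before to 50 after each RefSeq start, were found for 43 members, 8 of them with several starts. Ddx6, Ddx11, Ddx39a, Dhx38 and Dhx58 had no entry. Motifs were searched on both strands. The GC box GGGCGG was found in 32 of the 43 (74.4%), against 38.2% of 27025 genes with a window. The ETS family site CACTTCCG occurred in 8 (18.6%), against 3.86% of all, among them Ddx27, Ddx21, Ddx18, Ddx47 and Ddx50 of the nucleolar group and Dhx8 and Ddx39b of the splicing group. The E-box CACGTG, a palindrome bound by MYC and MAX, was in 7 (16.3%) against 8.09%, and the CCAAT box in 21 (48.8%) against 41.1%. TATAAA was in 6 (14.0%) against 15.7%, and the palindromic NRF1 site in 2 (4.65%) against 1.07%. The antioxidant response element TGACNNNGC, bound by NRF2, was in 5 (11.6%) against 14.0%. The interferon-stimulated response element, as capitalised in Ddx60 above but with any base at its 2 middle positions, was in 2 (4.65%) against 3.99%, namely Ddx58 and Ddx60. The median GC content was 60.7% over the members' windows and 52.7% over all windows, so shares of GC-rich motifs are not matched for base composition.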

How the data were processed

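Total RNA was hybridised to Affymetrix mouse 3′ arrays, 1 sample per array. Per the submitters' processing notes, the authors used Affymetrix Expression Console, Transcriptome Analysis Console and RMA; no versions are given. The deposited table holds a log2 value for every probe set on every array. RMA brings the arrays to a common distribution, and a change shared by most genes would not survive it. Names came from the platform's annotation, which can be old: of 45141 probe sets, 28898 had 1 gene symbol and 551 several. Symbols were updated by gene ID through a RefSeq table (GRCm38.p6). Each of 17097 genes was represented by its brightest probe set.

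Groups came from sample titles. Differences came from limma (version 3.58.1, R version 4.3.3; functions lmFit and eBayes), with no covariate and 2 residual degrees of freedom, two-sided, with Benjamini-Hochberg adjustment over all genes and a threshold of 0.05. A test of the code on simulated data was run. Precision was limited by 2 arrays a group. Any member could be named; of each partner list, the 3 genes with the smallest p, and the Eif4a genes. Members, lists, roles and motifs were chosen with earlier results of these data known. Alternatives were averaging over probe sets, a filter on dim genes, 3 other normalizations, a variance trend, a replicate block and leaving out each array.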

Additional observations from a re-analysis of the deposited data

How the results depend on the processing

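The count of genes called was 0, and that of helicases 0, under each of the 7 other settings and with each of the 4 arrays left out. The median difference of the helicases stayed below 0 throughout, from -0.13 without control 2 to -0.07 without plumbagin 1 among the leave-out fits, and it was -0.06 after cyclic loess. The nucleolar median ranged from -0.23 without plumbagin 2 to -0.0253 without plumbagin 1, and the splicing median from -0.20 without control 2 to -0.0588 without control 1. Ddx6 on its brightest probe set ranged from -1.32 without plumbagin 1 to 0.11 without plumbagin 2, so the direction on that probe set rested on plumbagin 2. On its dimmest probe set plumbagin 1 was also below both controls (8.08 against 8.33 and 8.35). Leaving out 1 array turned the sign of 22 helicases in all and left that of 26. In the fits without 1 array the ranges of the others that turned were Ddx1 -0.041 to 0.018, Ddx21 -0.37 to 0.035, Ddx42 -0.22 to 0.047, Ddx5 -0.31 to 0.25, Ddx52 -0.43 to 0.32, Ddx60 -0.0051 to 0.21, Dhx15 -0.081 to 0.014, Dhx33 -0.39 to 0.063, Dhx37 -0.17 to 0.13, Dhx58 -0.045 to 0.014, Dhx9 -0.15 to 0.39, Ddx17 -0.25 to 0.40, Ddx39a -0.40 to 0.17, Dhx40 -0.064 to 0.20, Ddx10 -0.18 to 0.70, Ddx11 -0.24 to 0.0066, Ddx25 -0.19 to 0.072, Ddx3x -0.0699 to 0.35, Ddx47 -0.13 to 0.0073, Dhx36 -0.18 to 0.49, Dhx38 -0.28 to 0.065. Averaging the probe sets of a gene turned Ddx1 (0.0586), Ddx17 (-0.13), Ddx18 (0.00430), Ddx5 (0.0586) and Dhx30 (0.0479). Quantile normalization again turned Ddx1 (0.000943), Ddx47 (0.00548) and Ddx52 (0.0228). Cyclic loess turned Ddx1 (0.0306), Ddx47 (0.0126), Ddx5 (0.00393), Ddx52 (0.0203) and Dhx15 (0.00296), and left 32 of 48 helicases lower (66.7%), against 77.1% as reported. The causes were not tested. Same-numbered samples are not said to be paired. Their number 2 minus number 1 differences correlated at 0.54 over genes. With the replicate number as a block, 0 helicases and 0 genes were called (smallest adjusted p = 0.919 by limma), and 434 genes had an unadjusted p under 0.05 against 169 without the block. In this balanced layout the block cannot move a mean difference, which was -0.60 for Ddx6 in both fits. An unadjusted p under 0.05 was found for 8 helicases (16.7%) without control 2, against 4.62% of all genes, and for 4 (8.33%) without plumbagin 2, against 5.69%. It was found for 1, Ddx6, without plumbagin 1 (2.08% against 0.328%), and for 2, Ddx46 and Dhx29, with probe sets averaged (4.17% against 1.15%). Where 1 array was left alone in its treatment, its spread was taken from the other treatment. With 2 arrays a group and a median interval of 0.33 to either side, precision was limited.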
